A study of Homo sapiens with 6 samples.

Results

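The 10 genes described here make, store or take back catecholamines, or encode the granin proteins packed with them. They are TH, DDC, DBH, PNMT, GCH1, SLC18A1, SLC18A2, SLC6A2, CHGA and CHGB. They were chosen by name, and each was looked up in 9 lists of regions bound by N-Myc, by JMJD6 or by both proteins, with the common peaks that overlap its regions. Of the 10 genes, 6 were named in at least 1 region and 4 (DBH, PNMT, SLC18A2 and CHGB) were not listed. For scale, the 9 lists together named 8279 symbols, of which 7582 matched 7517 distinct protein-coding genes, some under more than 1 symbol, among the 20136 in the annotation used.

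The data come from chromatin immunoprecipitation followed by sequencing (ChIP-seq) in CHP-134 cells, a human neuroblastoma line grown in culture. There were 3 samples with an antibody against N-Myc, the transcription factor encoded by MYCN, from cells cross-linked with formaldehyde alone. There were 3 samples with an antibody against JMJD6, a jumonji domain protein, from cells cross-linked with disuccinimidyl glutarate (DSG) and then formaldehyde. The study asked whether both proteins bind the same promoters and enhancers. All 6 samples were of 1 cell line, with no second line, no knockdown and no other treatment among the labels, so cross-linking and antibody cannot be told apart in any difference between the proteins. A common peak is an interval found in all 3 replicates of a protein. The lists give positions and nothing on the strength of a peak. Its read depth is therefore unknown, no spread between replicates can be given, and no test was made. They hold no RNA measurement, so whether CHP-134 cells expressed these genes was not measured here.

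Catecholamine neurons and sympathetic cells convert tyrosine to dopa with tyrosine hydroxylase and dopa to dopamine with aromatic L-amino acid decarboxylase. Dopamine is pumped into vesicles, where dopamine beta-hydroxylase turns it into noradrenaline, and released noradrenaline is taken back by a plasma membrane transporter. Neuroblastoma arises from the sympathoadrenal lineage, which is recognised by genes of this set such as TH and DBH. N-Myc with its partner MAX binds E-boxes, the 6-base motif CANNTG, and prefers the canonical form CACGTG.

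The sequences below are stretches of 150 bases from the common N-Myc peaks on which the results turn, taken from the GRCh37 reference, plus strand, 5′ to 3′. Capitals mark every CANNTG E-box. The TH stretches hold the canonical E-boxes of that peak. The others hold the canonical E-box of their peak or, where it has none, as many E-boxes as any 150 bases of the peak. Other stretches of the GCH1 and CHGA upstream peaks hold as many.
TH upstream peak, left E-box, chr11:2211891-2212040: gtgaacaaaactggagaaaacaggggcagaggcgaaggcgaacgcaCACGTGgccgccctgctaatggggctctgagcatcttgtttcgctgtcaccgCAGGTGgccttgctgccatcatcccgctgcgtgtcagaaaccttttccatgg
TH upstream peak, right E-box, chr11:2212159-2212308: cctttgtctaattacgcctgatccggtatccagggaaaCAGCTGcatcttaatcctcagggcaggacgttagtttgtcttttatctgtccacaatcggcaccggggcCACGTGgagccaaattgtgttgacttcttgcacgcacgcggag
DDC intron peak at the DDC-AS1 start, chr7:50599694-50599843: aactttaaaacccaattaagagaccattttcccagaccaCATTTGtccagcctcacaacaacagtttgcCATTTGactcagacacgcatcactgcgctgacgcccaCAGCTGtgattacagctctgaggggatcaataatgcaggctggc
DDC intron peak with no listed region, chr7:50535763-50535912: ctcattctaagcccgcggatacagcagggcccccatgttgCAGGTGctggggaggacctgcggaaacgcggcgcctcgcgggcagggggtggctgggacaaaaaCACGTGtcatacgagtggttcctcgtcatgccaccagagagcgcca
GCH1 intron peak, chr14:55349296-55349445: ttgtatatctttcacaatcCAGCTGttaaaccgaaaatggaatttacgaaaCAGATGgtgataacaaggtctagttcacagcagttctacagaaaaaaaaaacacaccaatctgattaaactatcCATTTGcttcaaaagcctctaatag
SLC18A2 gene body peak, chr10:119017303-119017452: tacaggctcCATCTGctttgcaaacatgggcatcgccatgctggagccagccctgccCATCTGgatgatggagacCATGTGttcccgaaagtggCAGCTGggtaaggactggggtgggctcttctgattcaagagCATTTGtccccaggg
SLC6A2 intron peak, chr16:55696574-55696723: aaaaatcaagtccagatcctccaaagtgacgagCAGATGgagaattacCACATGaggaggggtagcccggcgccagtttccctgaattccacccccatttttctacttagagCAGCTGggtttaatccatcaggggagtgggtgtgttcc
CHGA upstream peak, chr14:93383730-93383879: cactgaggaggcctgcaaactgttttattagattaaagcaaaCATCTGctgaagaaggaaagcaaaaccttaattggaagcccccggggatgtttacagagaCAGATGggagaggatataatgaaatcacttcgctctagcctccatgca
CHGA distal peak at GOLGA5, chr14:93260287-93260436: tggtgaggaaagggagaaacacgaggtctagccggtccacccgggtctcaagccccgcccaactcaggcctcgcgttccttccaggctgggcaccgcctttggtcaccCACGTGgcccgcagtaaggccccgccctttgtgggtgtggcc
The canonical E-box appears in 4 of these stretches, the pair from TH, the DDC stretch with no listed region and the CHGA stretch at GOLGA5. The other 5 hold E-boxes of other forms only.

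The N-Myc lists named the catecholamine genes at typical enhancers more than at promoters, as they did protein-coding genes as a whole. The JMJD6 lists, which named 1.28% of all protein-coding genes in any region, did not name them at all. A promoter was 1 kb on each side of a start site, and a typical enhancer a stretch with the histone mark H3K27ac to which the authors assigned up to 2 nearby genes. In the N-Myc typical enhancer list 6 of 10 genes were named (60%, exact 95% interval 26.2 to 87.8%), against 31.9% of all protein-coding genes, which lies inside that interval. In the N-Myc promoter list 1 of 10 was named, SLC6A2 (10%, interval 0.253 to 44.5%), against 17.5% of all genes. Counting any N-Myc region, the members were again 6 of 10 and the background was 37%. No member was named in the N-Myc super-enhancer list, which named 1.31% of all genes. With 10 genes, a count of 0 allows a share of up to 30.8% (exact interval), so neither the zero for super-enhancers nor that for JMJD6 stands apart from the background.

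**Figure D1:**
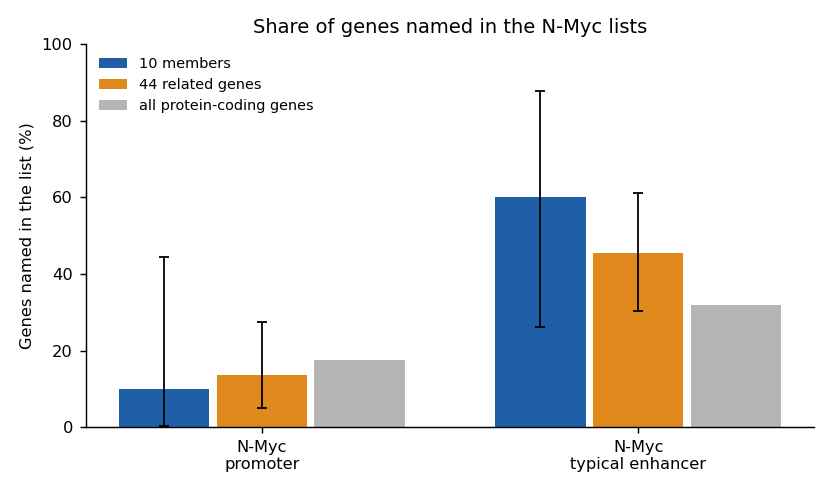
Share of genes (%) named in the N-Myc promoter list and the N-Myc typical enhancer list, for the 10 members (blue), 44 related genes (orange) and all 20136 protein-coding genes (grey), with exact 95% intervals for the first pair of groups. The members stand at 10% and 60% and all genes at 17.5% and 31.9%, and each interval of the members contains the value for all genes.

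The 6 listed genes accounted for 9 regions, 8 of the 4649 N-Myc typical enhancers (0.172%) and 1 of the 5114 N-Myc promoters. CHGA was named in 3, SLC6A2 in 2, and TH, DDC, GCH1 and SLC18A1 in 1 each. Each of the 9 overlapped at least 1 common N-Myc peak, 10 peaks in all, since the GCH1 enhancer held 2. The authors listed regions for such an overlap, and only 144 of all N-Myc typical enhancers and 131 of all N-Myc promoters held no common peak. Over all N-Myc typical enhancers 15.7% held 2 or more peaks. None of the 9 overlapped a JMJD6 peak. Such an overlap was rare in general, as the lists of regions bound by both proteins held 65 typical enhancers and 84 promoters.

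**Figure D2:**
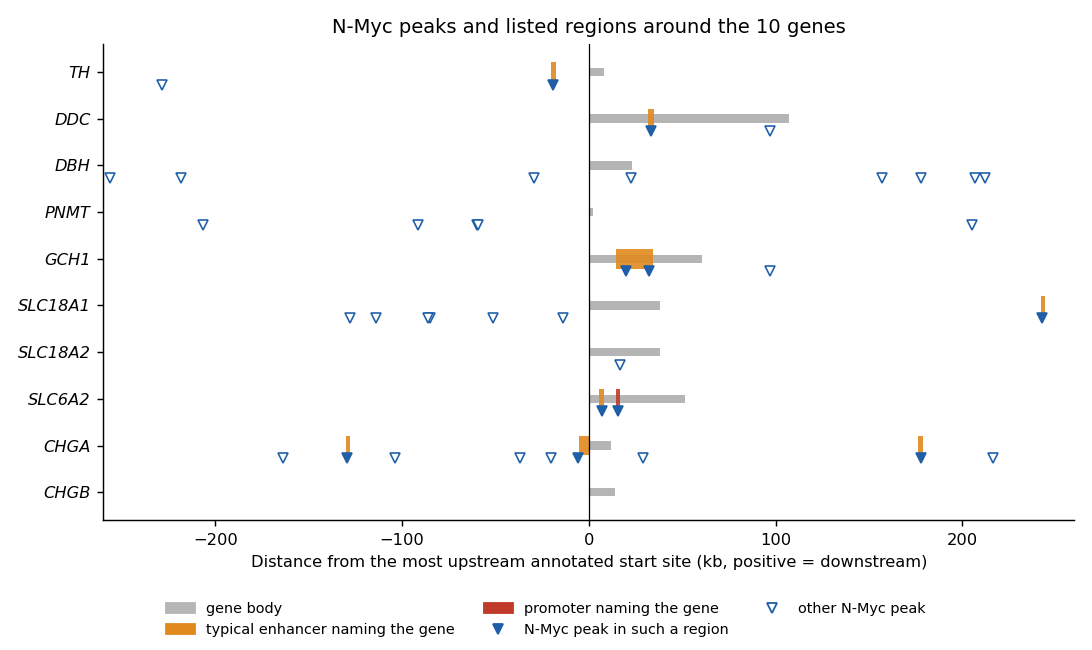
Position of N-Myc peaks (triangles), typical enhancers (orange) and promoters (red) that name each gene, in kb from the most upstream annotated start site, with gene bodies in grey and the narrowest regions widened to be visible. Filled triangles are peaks in a region naming the gene; CHGB has no peak in the window, and the regions of SLC18A1 and 2 of the 3 of CHGA lie over 100 kb from the gene.

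Among the enzymes of the pathway, TH and DDC were listed and DBH and PNMT were not. TH (chr11:2185159-2193045, minus strand) encodes tyrosine hydroxylase, the rate-limiting enzyme. Its typical enhancer, chr11:2211734-2212113, lay 18.9 kb upstream and was only 380 bp long, with 3.66% of N-Myc typical enhancers shorter. ASCL2, which encodes a basic helix-loop-helix factor, was the other gene named there, at 80.3 kb. The N-Myc peak was wider than the enhancer, 669 bp with 344 bp inside it, and lay in intergenic sequence. This peak was wider than 85% of common N-Myc peaks. It held 2 canonical E-boxes, 164 and 165 bp on either side of the peak centre, as the first pair of sequences shows. At least 2 canonical E-boxes were present in 4.71% of the 10172 common N-Myc peaks, counted over all widths. TH had no other N-Myc peak within 100 kb of a start site.

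DDC (chr7:50526134-50633102, minus strand) encodes aromatic L-amino acid decarboxylase, which makes dopamine and also serotonin. Its typical enhancer, chr7:50598438-50601535, was 3.1 kb long and intronic, 33.2 kb downstream of the start site used by the authors, with FIGNL1 as the other gene at 82.6 kb. The N-Myc peak in it, 552 bp, covered the start site of the antisense RNA DDC-AS1 and was also in the promoter list under that name. It was 7.83 kb from the nearest DDC start, an internal one. A ChIP-seq peak has no strand, so the lists do not tell whether this peak belongs to DDC or to DDC-AS1. This peak held 5 E-boxes, none of them CACGTG. A second N-Myc peak of 333 bp, chr7:50535752-50536084, lay in a DDC intron in no listed region, and its canonical E-box was 48 bp from the centre.

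DBH (chr9:136501485-136524451, plus strand) encodes dopamine beta-hydroxylase, the enzyme that makes noradrenaline. It was in none of the 9 lists, yet a common N-Myc peak of 275 bp, chr9:136524088-136524362, lay wholly within its last exon, in the untranslated part, 22.6 kb downstream of the nearest DBH start and 1.65 kb from a start of the antisense gene DBH-AS1. The peak held 1 CANNTG E-box, a canonical one, 5 bp from the peak centre, and 1 CACGCG 95 bp from it. It was narrow, with 8.4% of common N-Myc peaks narrower. A second peak lay 29.4 kb upstream of DBH, also in no region.

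PNMT, which encodes the enzyme that turns noradrenaline into adrenaline in the adrenal medulla, was in no list and had no N-Myc peak in its 2.5 kb gene body. Its nearest N-Myc peak was 59.2 kb upstream, and 55.5% of protein-coding genes had a nearer one. The 2 nearest peaks lay in a promoter named for NEUROD2 and in an enhancer named for NEUROD2 and PPP1R1B, genes mentioned here after the values were seen.

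GCH1 (chr14:55308726-55369544, minus strand) encodes GTP cyclohydrolase, the first enzyme in making tetrahydrobiopterin, the cofactor that tyrosine hydroxylase needs. Its typical enhancer, chr14:55334972-55354722, was intronic and 19.8 kb long, longer than 95.7% of N-Myc typical enhancers. It was centred 24.7 kb downstream of the start, and SAMD4A, the other gene named, was 310 kb away. The 2 N-Myc peaks in it were 607 and 906 bp wide, and the wider one was wider than 95.2% of common N-Myc peaks. The wider peak held 9 E-boxes, 5 of them of the form CAGATG (read as CATCTG on the other strand). That number was reached by 23 of 10172 peaks (0.226%). The cut was set at this peak's own number and the share is over peaks of all widths, so it does not allow for the width of this peak. Both GCH1 peaks lay partly in repeated sequence. In the 607 bp peak 40.8% of the 32-base words occurred once in the reference and 71.3% of stretches as long as a 75-base read held such a word, while in the 906 bp peak the shares were 74.4% and 97.4%.

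Of the vesicular monoamine transporters, which load amines into vesicles, SLC18A1 was listed and SLC18A2 was not. The region that named SLC18A1 (chr8:20002366-20040717, minus strand) was chr8:19797037-19798185, 243 kb downstream of SLC18A1 and 1.13 kb from LPL, which encodes lipoprotein lipase. The N-Myc peak was 282 bp wide, lay in LPL and had 168 bp inside the region. The nearest N-Myc peak to SLC18A1 was not in that region but 13.7 kb upstream, in a promoter named for ATP6V1B2, which encodes a subunit of the proton pump that drives vesicular amine uptake. ATP6V1B2 is mentioned here after its listing was seen.

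SLC18A2 (chr10:119000604-119038941, plus strand) encodes the vesicular transporter of neurons. It was in none of the lists. A common N-Myc peak of 311 bp, chr10:119017199-119017509, lay in its gene body 16.6 kb downstream of the nearest SLC18A2 start, with 96 bp over a coding exon. It held 5 E-boxes, none of them CACGTG, and 2 of the form CAGATG lay 9 and 39 bp from the centre.

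SLC6A2 (chr16:55689900-55741557, plus strand) encodes the noradrenaline transporter, which takes noradrenaline back up and through which neuroblastoma cells take up the tracer MIBG. It was the one member with a promoter in the N-Myc list, chr16:55704582-55706582. That promoter was not at the first exon. It was centred on an internal annotated start site in the gene, and the peak there, 308 bp, ended on that start. Measured from the most upstream start, the nearest N-Myc peak was 6.63 kb away, in the typical enhancer chr16:55695509-55697676, for which CES1 was the other gene at 170 kb. That second peak was 364 bp wide and held 5 E-boxes. Neither SLC6A2 peak held CACGTG. In the peak at the internal start 83.8% of the 32-base words were found once in the reference, with up to 85 copies of a word, though every stretch of 75 bases (100%) held a word found once.

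The granins are acidic proteins of the dense-core vesicle that bind amines and peptides, and CHGA, which encodes chromogranin A, is the usual serum marker of neuroendocrine tumours. CHGA (chr14:93389495-93401630, plus strand) was named in 3 typical enhancers, more than any other member. The nearest, chr14:93384000-93390306, was 6.31 kb long and covered the CHGA start site. The N-Myc peak in it lay at the far edge, 5.25 kb upstream of the start, with 244 of its 807 bp inside. This peak was wider than 92.4% of common N-Myc peaks and held 6 E-boxes, 3 of them CAGATG, the closest 5 bp from the peak centre. At least 3 CAGATG were found in 4.19% of common N-Myc peaks, counted over all widths.

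The other CHGA enhancers were far from it and nearer to other genes. The upstream one, chr14:93259702-93261619, was 129 kb from CHGA and 0.084 kb from the start of GOLGA5, and its 333 bp peak, with 1 canonical E-box 128 bp from the centre, was also in the promoter list as GOLGA5. The downstream one, chr14:93566932-93567483, was 178 kb away with a 424 bp peak inside ITPK1. Another 3 N-Myc peaks within 100 kb of CHGA, at 19.9, 20.2 and 36.4 kb, were in no region. CHGB, which encodes chromogranin B, differed in position from CHGA. It was in no list, had 0 N-Myc peaks within 100 kb, and its nearest was 537 kb upstream, with a nearer peak for 93.5% of protein-coding genes.

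Distances gave a fuller order of the members than the lists. From the nearest annotated start to the nearest N-Myc peak they were 0 bp for SLC6A2, 5.25 kb for CHGA, 7.83 kb for DDC, 13.7 kb for SLC18A1, 16.6 kb for SLC18A2, 18.7 kb for TH, 19 kb for GCH1, 22.6 kb for DBH, 59.2 kb for PNMT and 537 kb for CHGB. The listed and unlisted genes interleaved in this order, as SLC18A2 lay nearer than TH and GCH1. The median was 17.6 kb for the members and 44.5 kb for all protein-coding genes. An N-Myc peak within 100 kb was found for 9 of 10 members (90%, interval 55.5 to 99.7%) against 65.7% of all genes, within 5 kb for 1 of 10 against 25.7%, and within 1 kb for 1 of 10 against 20.8%. A peak in the gene body was found for 5 of 10 (DBH, DDC, GCH1, SLC18A2 and SLC6A2; 50%, interval 18.7 to 81.3%) against 25.9%. Long genes hold more bases in which a peak can fall, and the part of gene length in this count was not tested.

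**Figure D3:**
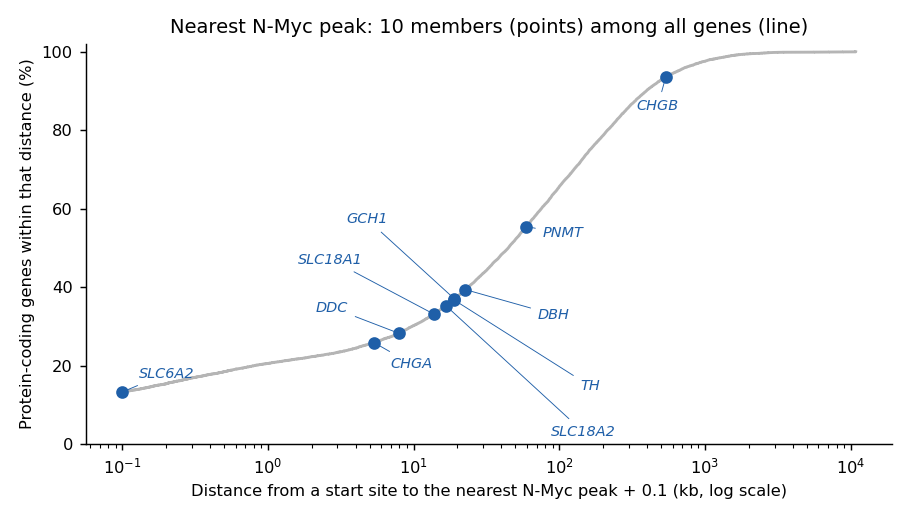
Percent of protein-coding genes (grey line) whose nearest N-Myc peak lies within a given distance of an annotated start site, in kb on a log scale after adding 0.1 kb, with the 10 members as blue points. SLC6A2 is at 0 kb, 7 members lie between 5.25 and 22.6 kb, and PNMT at 59.2 kb and CHGB at 537 kb stand to the right.

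Of the 22 N-Myc peaks within 100 kb of a member's start, 7 lay in a region naming that member, 5 in regions naming other genes only and 10 in no region. Over all common N-Myc peaks 36.1% were in no promoter, typical enhancer or super-enhancer of the N-Myc lists. The 3 gene body peaks of DBH, DDC and SLC18A2 that were in no region were 275 to 333 bp wide. The 10 peaks in the members' regions had a median width of 488 bp and ran from 282 to 906 bp, against a median of 418 bp over all 10172.

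JMJD6 peaks were far from every member. The JMJD6 list held 561 common peaks, and 0 of 10 members had one within 100 kb of a start, against 5.85% of all protein-coding genes. The nearest was 311 kb from PNMT, and the farthest was 23731 kb from CHGB. From TH it was 766 kb and from CHGA 734 kb. The median was 2749 kb for the members and 2513 kb for all genes. The members' count was 0 of 10 in each JMJD6 list and each list of regions bound by both. All protein-coding genes were named at 0.626% in JMJD6 promoters, 0.909% in JMJD6 typical enhancers and 0.0745% in JMJD6 super-enhancers, or 1.28% in any of these. In regions bound by both they were named at 0.298% for promoters, 0.621% for typical enhancers and 0.0546% for super-enhancers, or 0.785% in any. A count of 0 among 10 genes does not set the members apart from shares this low.

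The E-box forms in the members' peaks are given here beside their shares over all N-Myc peaks, as a description with wide intervals and no test. All motifs were searched on both strands, and each 6-base E-box named here is also counted as a CANNTG site. The canonical CACGTG was in 2 of the 10 peaks in regions (20%, interval 2.52 to 55.6%), those of TH and of CHGA at GOLGA5. With the 3 gene body peaks in no region included, it was in 4 of 13 (30.8%). It was in 33.4% of all common N-Myc peaks, inside the interval, and in 5.21% of windows of the same widths 5 kb downstream. Within 100 bp of the peak centre it was in 0 of 10 (interval 0 to 30.8%), against 23.5% of all peaks, inside the interval. CAGATG, a form bound by many neural basic helix-loop-helix factors, was in 6 of 10 (60%, interval 26.2 to 87.8%) against 43.3% of all peaks and 27.7% of downstream windows. CAGCTG was in 7 of 10 (70%, interval 34.8 to 93.3%) against 33% of all peaks, just below that interval, and 18.4% of windows. Within 100 bp of the peak centre CAGCTG was in 4 of 10 (40%, interval 12.2 to 73.8%), against 19% of all peaks, inside the interval. The intervals treat the 10 peaks as independent, although CHGA, GCH1 and SLC6A2 each gave more than 1 of them. CATGTG was in 4 of 10 (40%, interval 12.2 to 73.8%) against 42.1% of all peaks, and CACGCG in 2 of 10 (20%, interval 2.52 to 55.6%) against 15.9%. AGATAA, a form of the site recognised by GATA factors, was in 4 of 10, those of TH, of CHGA 5.25 kb upstream and both of GCH1 (40%, interval 12.2 to 73.8%), against 20.4% of all peaks and 24.7% of windows. TAATTA, a form bound by many homeodomain factors, was in 1 of 10 (10%, interval 0.253 to 44.5%) against 12.8% of all peaks.

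Of the 10 peaks, 3 lay within 1 kb of any annotated start (30%, interval 6.67 to 65.2%) against 44% of all. Among the 2133 N-Myc peaks in typical enhancers over 1 kb from a start, CACGTG was in 29.4%, CAGATG in 64.6%, CAGCTG in 43%, CATGTG in 57.4%, CACGCG in 7.97%, AGATAA in 29.5% and TAATTA in 20.1%. The members' intervals contain each of these shares. Of the 3 gene body peaks in no region, 2 held CACGTG within 100 bp of the centre, those of DBH and DDC. The interval, 9.43 to 99.2%, contains the 23.5% of all peaks. Promoters of 300 bases in RefSeq (GRCh38.p14) were matched for DDC, DBH, SLC18A2 and CHGA, 5 windows in all, and 0 of the 5 held CACGTG, against 7.26% of 35116 promoter windows. TH, PNMT, GCH1, SLC18A1, SLC6A2 and CHGB were not matched.

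**Figure D4:**
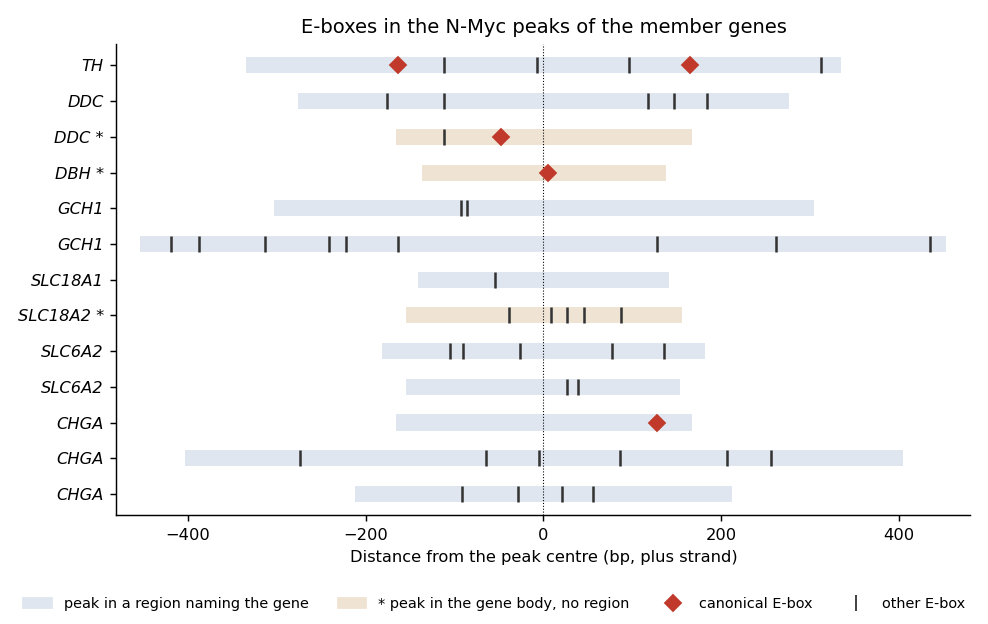
E-boxes in the 13 N-Myc peaks in the members' regions or gene bodies, as distance in bp from the peak centre, with canonical E-boxes as red diamonds and other forms as ticks. Canonical E-boxes in the peaks of regions (blue bars) lie 128 to 165 bp from the centre, and those of the DBH and DDC gene body peaks in no region (tan bars) lie 5 and 48 bp from it.

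Genes with neighbouring functions were looked up the same way, 44 in 3 lists. For typical enhancers of N-Myc, 20 of 44 were named (45.5%, interval 30.4 to 61.2%) and for promoters 6 (13.6%, interval 5.17 to 27.4%), against 31.9% and 17.5% of all genes. Of 9 genes for tetrahydrobiopterin synthesis and amine breakdown, 1 had an enhancer, GCHFR, which encodes the feedback regulator of the GCH1 product (11.1%, interval 0.281 to 48.2%). The genes MAOA and MAOB of amine oxidation had no N-Myc peak nearer than 2321 and 2548 kb. Of 10 genes for other amine enzymes and transporters, 1 had a promoter (SLC18B1) and 5 an enhancer (50%, interval 18.7 to 81.3%). Of 25 genes for granins, peptide processing and vesicle release, 4 had a promoter (SCG3, SYT1, SYT7 and UNC13A) and 14 an enhancer (56%, interval 34.9 to 75.6%). The 3 intervals overlap, and no difference between the lists was tested.

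Of the 44 related genes, 2 were named in an N-Myc super-enhancer and 1 in a JMJD6 region, against 1.31% and 1.28% of all genes. SYT1, which encodes a calcium sensor of vesicle fusion, was named in 3 N-Myc promoters and in a super-enhancer of 27.5 kb lying 76.8 kb downstream of its start. RAB27B, which encodes a vesicle docking GTPase, was named in a super-enhancer 483 kb away that also named TCF4. CPE, which encodes the peptide-processing carboxypeptidase E, was the 1 related gene in a JMJD6 region, a typical enhancer of 22.4 kb centred 10.5 kb downstream of its start. It was also named in 1 N-Myc typical enhancer, and its nearest N-Myc peak was 315 kb and its nearest JMJD6 peak 16.1 kb away. PCBD2, which encodes an enzyme of tetrahydrobiopterin recycling, had a JMJD6 peak 15.3 kb away but was in no list, and it is mentioned after its value was seen.

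By pattern over the 9 lists, TH, DDC, GCH1, SLC18A1 and CHGA were alike, being named at an N-Myc typical enhancer and nowhere else. This pattern was common, with 3671 protein-coding genes (18.2%). Of the related genes 13 shared it, among them SCG2, VGF, PAM, CYB561 and the serotonin genes TPH2 and SLC6A4. PAM amidates peptides in the same vesicles and CYB561 carries the electrons that DBH and PAM need. SLC6A2, with a promoter and a typical enhancer, shared its pattern with 2424 genes (12%), of which SLC18B1, SCG3, SYT7 and UNC13A were among the related ones. The pattern of DBH, PNMT, SLC18A2 and CHGB, in no list, was that of 12619 genes (62.7%).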

How the data were processed

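ChIP-seq in CHP-134 cells comprised 3 N-Myc and 3 JMJD6 samples, grouped by the antibody in their labels. Per the labels and published methods, the authors' pipeline used BWA alignment to hg19, SAMtools, bedtools and MACS2 2.1.1.20160309, with peaks called per replicate over input (q-value maximum 0.05) and kept when found in all 3. Promoters were 1 kb either side of a RefSeq start, enhancers and super-enhancers came from H3K27ac with ROSE (stitching 12.5 kb), and nearest genes from GREAT (2 genes within 1000 kb). The 12 deposited lists hold positions in bp and gene names, pooled over replicates. The paper gives a minimum number of reads per sample, but the lists do not give the depth at a peak.

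Positions were compared with GENCODE version 44 lifted to GRCh37. Of the 5114 N-Myc promoters, 4712 had a symbol in this annotation, and 4150 of these (88.1%) were centred within 100 bp of a start of their gene. An overlap was at least 1 bp. Intervals are exact (Clopper-Pearson, 95%) and cover counting error only. Related genes were 3 lists of enzymes, transporters and vesicle genes. All members were named whatever their listing, as were the genes sharing their regions, and related genes with an N-Myc promoter, a super-enhancer, a JMJD6 region or a member's pattern; others were chosen after their values were seen. Some results covered by this rule are not reported here. The members and lists were chosen with earlier results of these data known. The printed stretches avoid untranslated exons. Analyses used Python 3.11.15, numpy 2.4.6, SciPy 1.17.1 and pysam 0.24.0, with plots in matplotlib 3.10.9, and the distance, overlap and motif routines were tested on simulated data. Alternatives covered the start site, peak width, overlap, gene assignment and motif window.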

Additional observations from a re-analysis of the deposited data

How the results depend on the processing

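The count of 1 member with an N-Myc promoter became 0 when the promoter had to overlap a peak of at least the median width, 418 bp, 0 when a peak had to lie within 1 kb of the most upstream start site, and 5 when a peak anywhere in the gene body counted. The last pair of settings was chosen after seeing the data. The 10 peaks in the members' regions became 6 when only peaks of at least the median width were kept. The share of these peaks with CACGTG, 20%, became 0% within 100 bp of the peak centre. By construction these settings use fewer peaks, other start sites, or a narrower window.

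The count of 6 members with a typical enhancer was between 4 and 6 under the 5 other settings tried, being 5 when an enhancer counted for its nearest named gene only (SLC18A1 was lost, a setting chosen after seeing the data) and 5 when it had to lie within 100 kb of a start. In all, 19 of 24 alternatives stayed within 1.5 times the count or within the interval of the share. No paired analysis was possible because the lists pool the replicates and hold no value per sample, and for the same reason leaving out a replicate gave no value. Peak width is the only measure of a peak in the lists, and wider peaks hold more motif sites by length alone.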
